A study of Homo sapiens with 8 samples.

Results

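The 4 unlabelled control libraries of an APEX-seq experiment were compared, 2 of cells with the enzyme in the nucleus and 2 of cells with the enzyme at the outer mitochondrial membrane. They are 4 of the 8 libraries analysed, chosen by their labels and column names, with earlier results of these data known. All came from HEK293T, a transformed line from human embryonic kidney, and all these cells expressed APEX2, an engineered peroxidase that puts biotin on RNA near it when its substrates are supplied. The controls were not labelled, so what the streptavidin beads held back from them is background. The labels do not say which labelling step was left out, whether the lines were clones or what drove the APEX2 gene.

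The nuclear controls (NLS, numbers 1 and 3) carried APEX2 in the nucleus, were titled ribominus and were prepared by the SMARTer total RNA protocol, which needs no poly(A) tail. The outer membrane controls (OMM, numbers 3 and 4) carried APEX2 on the mitochondrial surface, were titled trizol and were made by the TruSeq stranded mRNA protocol, in which RNA with a poly(A) tail is selected. The series text gives Proteinase K release from the beads for NLS and TRIzol for OMM, while the sample labels name 1 RNeasy kit for all. APEX2 site, kit and release step therefore coincide, and their parts in any difference below cannot be told apart. Whether the 2 libraries of each group are separate cultures is not stated, so the spread behind every p-value is that between these libraries and may be technical.

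Most messenger RNAs end in a poly(A) tail that is added after cleavage downstream of an AAUAAA-like signal. Some abundant RNAs do not: the transcripts of RNA polymerase III, spliceosomal and small nucleolar RNAs, and the messages of replication-dependent histones, which end just past a conserved stem-loop. Selection on oligo(dT) beads is known to remove such RNAs, whereas a total RNA kit can keep them.

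The annotated ends of some of the RNAs on which the comparison turned are shown first. They were read from the GENCODE 29 transcripts (GRCh38), 5′ to 3′, in the DNA alphabet. The last 30 bases of the RNase MRP RNA (chr9:35657751-35658018, minus strand), the RNase P RNA (chr14:20343075-20343407, minus strand), 7SK (chr6:52995621-52995948, plus strand) and the Y RNAs RNY1 (chr7:148987136-148987248, minus strand) and RNY3 (chr7:148983755-148983856, plus strand) follow, with a closing run of T in capitals where there is one.
RMRP: ccacacggggctcattctcagcgcggctgt
RPPH1: ataacccaattcagactactctcctccgcc
RN7SK: gaggcgctgcatgtggcagtctgcctttct
RNY1: cttctcactactgcacttgactagtcTTTT
RNY3: actcccactgcttcacttgactagccTTTT
None of these 5 ends holds a run of 3 or more A. A poly(A) tail is added after cleavage and is not part of an annotated sequence, so this does not show which RNAs carry one.

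Histone messages are represented by the stem-loop with 5 bases on each side. The 16-base histone stem-loop core, searched on the transcript strand, is in capitals: a 6-base stem that begins with GG, a loop that begins with TTT and the returning arm that ends with CC. The first pair was shown because the annotated transcript stops soon after it, 39 and 86 bases further on. The second pair was shown because annotated transcripts run 390 and 14432 bases past it. These 4 genes were chosen after their values were seen. The cores lie at chr6:27808647-27808662 (plus), chr6:26026901-26026916 (minus), chr1:228457369-228457384 (minus) and chr6:26124669-26124684 (plus).
H2AC13: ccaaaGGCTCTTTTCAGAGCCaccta
H4C2: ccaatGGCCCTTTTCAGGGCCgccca
H2AW: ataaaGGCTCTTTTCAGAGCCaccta
H2AC6: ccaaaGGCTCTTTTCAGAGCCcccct
Among annotated genes with a transcript of 50 bases or more, 1 transcript per gene was searched for the core over its full length. The core was found in 0.112% of these genes, against 40.9% of 66 replication-dependent histone genes. A polyadenylation signal, AATAAA or ATTAAA on the transcript strand, stood in the last 50 bases of 71.4% of protein-coding genes and 39.1% of all genes. It stood there in 90% of the 10 histone genes known to give polyadenylated messages and in 28.8% of the 66 replication-dependent ones. It was found in 1 of 15 structured small RNAs and in 0 of 47 spliceosomal snRNAs. The signal matches describe annotated ends only, and the core matches describe whole annotated transcripts.

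The deposited values were read counts per gene. Total gene counts were 20746393 and 21096586 at NLS and 41660431 and 35165227 at OMM. The NLS controls, at lower depth, had 24931 and 30715 genes with at least 1 count, against 16741 and 14356 in the OMM controls. Genes with at least 100 counts numbered 11931 and 12067 against 12817 and 12285. Of the detected genes, 27.1% and 37.2% had only 1 to 9 counts in the NLS controls, and 8.75% and 8.25% in the OMM controls. The 2 NLS controls correlated across 17635 tested genes with Pearson's r = 0.985 on log2 CPM, and the 2 OMM controls with r = 0.911. Of 12739 genes that averaged at least 100 counts in the OMM controls, 533 (4.18%) had 0 counts in 1 of the 2 libraries, against 0 of 11976 genes at NLS. A 0 in a single OMM library is therefore weak evidence about an RNA, so both libraries are given for each gene described. Of 9 markers of this line 0 were called, and 7 had reads in both OMM controls, PAX2 and CD24 having 0 in number 4. VIM, an intermediate filament gene, stood at 360 and 381 CPM in the NLS controls and 327 and 392 CPM in the OMM controls. NEFM, a neurofilament gene, stood at 63.4 and 58.4 CPM against 193 and 94.8 CPM. KRT18, a keratin gene, stood at 20.7 and 33.1 CPM against 51.9 and 45.2 CPM. ENO2, a neuronal enolase, stood at 12.2 and 13.7 CPM against 18.5 and 20.5 CPM. The log2 fold changes were negative for NEFM (-1.24), KRT8 (-0.98), KRT18 (-0.85) and ENO2 (-0.59). They were positive for CD24 (2.15), INA (0.36), PAX2 (0.23), NEFL (0.13) and VIM (0.04). Of 12 markers of other cell types, 10 had 0 counts in both OMM controls, and the list summed to 0.000787% to 0.00106% of counts at NLS and 0.00121% to 0.00267% at OMM, nearly all from COL1A1 in the OMM libraries.

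Protein-coding genes held most of the counts in all 4 libraries. Library preparation lies between the beads and these counts: RNA with a poly(A) tail was selected at OMM, and the NLS libraries were titled ribominus. The shares below therefore describe the libraries and do not show what the beads held. Protein-coding genes took 94.7% and 92.8% of counts in the NLS controls and 96.9% and 97.1% in the OMM controls. Small structured RNAs took 1.17% and 2.66% of counts at NLS and 0.0703% and 0.0720% at OMM, and long non-coding RNAs 2.32% and 2.9% against 1.5% and 1.59%. The long non-coding class takes in some small RNAs by annotated type, RMRP and TERC among them. The mitochondrial message MT-CO1, which encodes a subunit of respiratory complex IV, had the highest count in NLS control 1 and OMM control 4. MT-ND4, of complex I, led in OMM control 3 and the 7SL RNA gene RN7SL1 in NLS control 3. CPM values here are counts over the TMM-scaled library size and carry no length correction, so they are compared between libraries and not between genes. Shares of a library are relative, and in bulk RNA fewer cells with an RNA cannot be told apart from less RNA per cell.

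**Figure D1:**
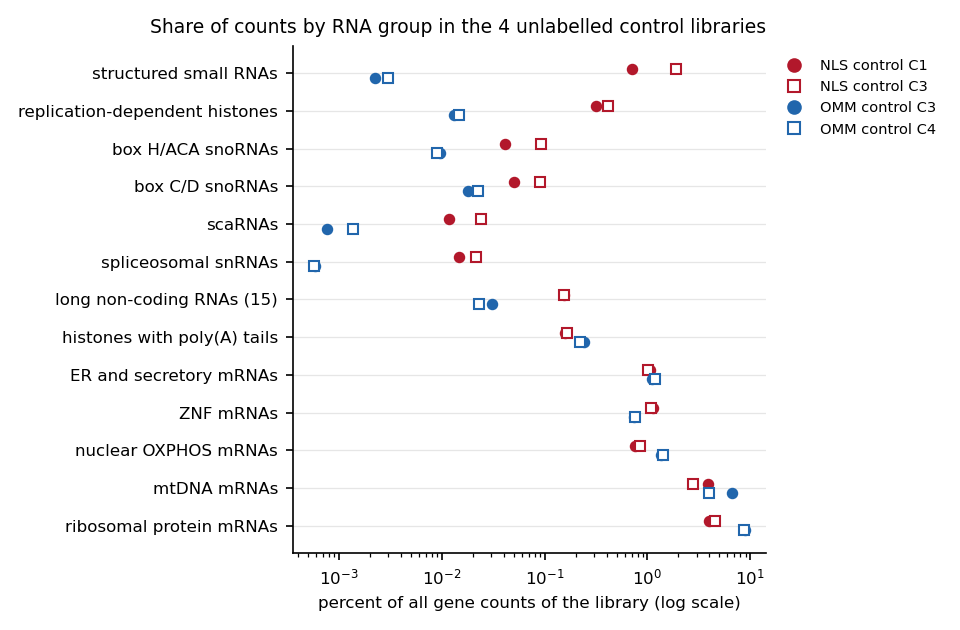
Percent of all gene counts of a library (log scale) taken by 13 groups of RNAs; red is NLS, blue is OMM, and each symbol is 1 library. The structured small RNAs take 0.713% and 1.92% at NLS but 0.00223% and 0.00299% at OMM, while ribosomal protein messages take 3.95% and 4.59% against 8.85% and 8.63%.

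The gene-by-gene test was edgeR's quasi-likelihood F test of the NLS over the OMM controls, two-sided, with Benjamini-Hochberg adjustment over 17635 genes. A gene was called at an adjusted p under 0.05. It called 1173 genes higher in the NLS controls (6.65% of those tested) and 518 lower (2.94%), 9.59% in either direction, with a median log2 fold change over all genes of 0.19. The calls sat close to the threshold, the smallest adjusted p being 0.0414, and 5492 genes had an unadjusted p under 0.05. DESeq2 called 2440 higher and 1681 lower. Leaving out 1 NLS library lowered the counts to 314 and 239 (without number 1) or 381 and 345 (without number 3). Leaving out 1 OMM library raised them to 7136 and 3960 (without number 3) or 4973 and 3557 (without number 4).

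By gene type, small structured RNAs had the largest median difference. Of 361 tested, 75 were called higher in the NLS controls and 1 lower, with a median log2 fold change of 7.04, or 3.37 when genes at 0 in a group were set to a bound of 3 counts per library. Long non-coding RNAs had 260 of 2127 called higher and 4 lower, with a median of 1.06. By annotated type this class includes RMRP and TERC, and also identifiers that overlap small RNA genes. Pseudogenes had 92 of 1049 called higher and 5 lower. Among 13538 protein-coding genes, 668 were called higher and 506 lower, and the median was 0.07.

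A direct count gave the RNAs that were well covered at NLS and listed with no read in either OMM control. Of 11612 genes with at least 100 counts in both NLS controls, 83 (0.715%) had 0 counts in both OMM controls, after identifiers with the same counts in every library were merged. Small structured RNAs made up 35 of them, out of 88 with that coverage (39.8%). Protein-coding genes made up 26 of 10781 (0.241%), and 20 of these 26 were replication-dependent histones. Long non-coding RNAs made up 15 of 405 (3.70%). Some of these identifiers overlap small RNA genes and hold the same or nearly the same counts, as at RPPH1 and SCARNA10. SCARNA2 was kept in the merge only under a long non-coding identifier. The long non-coding count therefore partly repeats the small RNA count. In the opposite direction, 0 of 11252 genes with at least 100 counts in both OMM controls had 0 counts in both NLS controls. The labelled libraries, which were no part of this choice, showed the same zeros for most of the small RNAs: 28 of the 35 had 0 counts in both labelled OMM libraries, as did 15 of 21 histone genes and 13 of the 15 long non-coding RNAs. Of the 6 other protein-coding genes, 0 were at 0 in both labelled OMM libraries. All 83 had counts in both labelled NLS libraries.

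The structured small RNAs are the housekeeping transcripts of RNA polymerase III and a few capped relatives. Of 15 members 13 were tested, 9 were called higher in the NLS controls and 0 lower, and the median log2 fold change was 8.88, or 8.06 with bounds. Their levels also differed between the NLS controls: all 13 were higher in number 3 than in number 1, by a median log2 difference of 1.18, against 0.01 over all tested genes.

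RN7SL1, the 7SL RNA of the signal recognition particle, stood at 1619 and 6966 CPM in the NLS controls and 9.47 and 8.70 CPM in the OMM controls. Its copy RN7SL2 stood at 872 and 3464 CPM against 6.19 and 6.16 CPM, and reads may be split between such near-identical copies. The libraries of the 2 groups did not overlap for either gene, which was so for 62.0% of all tested genes. The log2 fold change of RN7SL1 was 8.88 ± 0.99 (SE, edgeR adjusted p = 0.0434, n = 2 against 2). RN7SK, the RNA that holds the elongation factor P-TEFb inactive, stood at 2426 and 3626 CPM at NLS and at 0 and 4.15 CPM at OMM, a log2 fold change of 10.53 ± 1.83 (SE, edgeR adjusted p = 0.0483). With 1 library left out, RN7SL1 missed the threshold without OMM number 3 or 4 (edgeR adjusted p = 0.179 and 0.207), RN7SL2 likewise (0.178 and 0.204) and RN7SK without NLS number 1 or 3 (0.795 or more), all at log2 fold changes above 8.

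The RNA subunits of the tRNA- and rRNA-processing ribonucleases were nearly absent from the OMM controls. RMRP, of RNase MRP, stood at 1456 and 2815 CPM in the NLS controls, and 1 count was found in the 2 OMM controls together. Its share was 169317 times higher at NLS, with a 95% interval of counting error from 30388 to 6.69e+06. RPPH1, of RNase P, had 305 and 1419 CPM at NLS and 0 counts in both OMM controls, so it was at least 10652-fold higher against a floor of 3 counts per library. Without OMM number 3 or 4 neither passed (edgeR adjusted p = 0.0659 and 0.0818 for RMRP, 0.178 and 0.203 for RPPH1). The reads of RPPH1 were also counted for an overlapping antisense-class identifier. The bound of RPPH1 and those below for genes at 0 in both OMM libraries cover counting error only, not the dropout between OMM libraries.

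The Y RNAs, small partners of the Ro60 protein, showed the same split at lower levels. RNY1 stood at 10.4 and 32.9 CPM at NLS and RNY3 at 13.8 and 31.8 CPM, with 0 counts of either in the OMM controls. RNY1 was at least 267-fold and RNY3 at least 282-fold higher, and neither passed without NLS number 3 (edgeR adjusted p = 0.261 and 0.0618). RNY4, at 2.47 and 15.8 CPM against 0 in both OMM controls, did not pass (edgeR adjusted p = 0.0701). TERC, the telomerase RNA, stood at 41.8 and 56.8 CPM at NLS and 0.924 and 0.424 CPM at OMM, a log2 fold change of 6.18 ± 0.56 (SE, edgeR adjusted p = 0.0414). The vault RNA VTRNA1-3 had 24.2 and 43.0 CPM against 2.39 and 0 CPM, and did not pass (edgeR adjusted p = 0.185). Its OMM libraries, 1 of them at 0, were far apart.

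BCYRN1, the brain cytoplasmic RNA BC200, had the smallest fold change of the 13 tested members. It stood at 113 and 188 CPM in the NLS controls and 4.88 and 10.3 CPM in the OMM controls, a log2 fold change of 4.31 ± 0.52 (SE, edgeR adjusted p = 0.0459).

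Replication-dependent histones were 20 of the 26 protein-coding genes that were well covered at NLS and had no read in the OMM controls. These intron-poor genes supply the bulk of new chromatin in S phase, and their messages end in the stem-loop shown above. Of 68 members 48 were tested, 30 were called higher in the NLS controls and 0 lower, with a median log2 fold change of 7.41, or 6.44 with bounds, and of 10.89 and 9.31 without OMM number 3 or 4. The group held 0.318% and 0.415% of counts at NLS and 0.0131% and 0.0147% at OMM. In NLS control 3 it was higher than in control 1 for 46 of the 48 tested genes, by a median log2 difference of 0.41.

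H1-4, a linker histone, had 440 and 590 CPM in the NLS controls and 0 counts in both OMM controls. By counting error alone it was at least 6371-fold higher. H3C2, a core histone H3 gene, had 188 and 233 CPM against 0 and was at least 2601-fold higher. H2BC18, a core histone H2B gene, had 117 and 144 CPM against 0 and was at least 1616-fold higher. In the labelled OMM libraries H1-4 stood at 0 and 4.83 CPM, while H3C2 and H2BC18 had 0 in both. H1-2 kept a measurable level in the OMM controls, 17.3 and 20.5 CPM against 329 and 487 CPM at NLS, a log2 fold change of 4.44 ± 0.28 (SE, edgeR adjusted p = 0.0414). H2BC12 kept more, 52.1 and 44.0 CPM against 308 and 313 CPM, a log2 fold change of 2.69 ± 0.15 (SE, edgeR adjusted p = 0.0414). H2AW did not pass: it stood at 34.1 and 54.5 CPM at NLS and 26.1 and 22.1 CPM at OMM (edgeR adjusted p = 0.16). The members thus ran from no read at OMM to levels near those at NLS. Copies of 1 histone type are close in sequence, so reads may be split among them.

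The annotated ends of these genes were set beside their counts. A stem-loop was found in annotated transcripts of 30 of the 68 genes. In 8 of the 30 the annotation ended within 100 bases of it, and 5 of those had at least 100 counts in both NLS controls. The OMM controls held 0 counts of all 5, which include H2AC13 and H4C2. In 22 genes an annotated transcript ran over 100 bases further, and of the 13 with that NLS coverage 5 had reads in both OMM controls, H2AW and H2AC6 among them, 6 in only 1 of the 2 and 2 in neither. H2AC6 had 34.0 and 50.1 CPM at NLS and 4.42 and 5.45 CPM at OMM. Of 23 covered genes with no stem-loop match in the annotation, 6 had reads in both OMM controls, H1-2 and H2BC12 among them, and 3 in 1 of the 2. H3C2 is counted among the 23, but its identifier has no transcript in the annotation used, so it was not searched. The boundary of 100 bases was set after these values were seen, so the counts are a description with no test.

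Histone genes that are known to give polyadenylated messages were all present in both OMM controls. All 10 were tested, and 1 was called higher and 2 lower in the NLS controls, against 6.65% and 2.94% of all tested genes. Their median log2 fold change was -0.66 (-0.34 without OMM number 3). H2AZ1, a replacement H2A, stood at 318 and 324 CPM at NLS and 759 and 611 CPM at OMM, a log2 fold change of -1.09 ± 0.15 (SE, edgeR adjusted p = 0.0482). H1-10 went the other way, with 146 and 177 CPM against 83.5 and 70.7 CPM, a log2 fold change of 1.07 ± 0.18 (SE, edgeR adjusted p = 0.0482). The call of H1-10 was lost without NLS number 1 (edgeR adjusted p = 0.0541) or number 3 (0.256). H3-3B, the replacement H3.3, had 428 and 457 CPM against 725 and 607 CPM and did not pass (edgeR adjusted p = 0.0654).

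**Figure D2:**
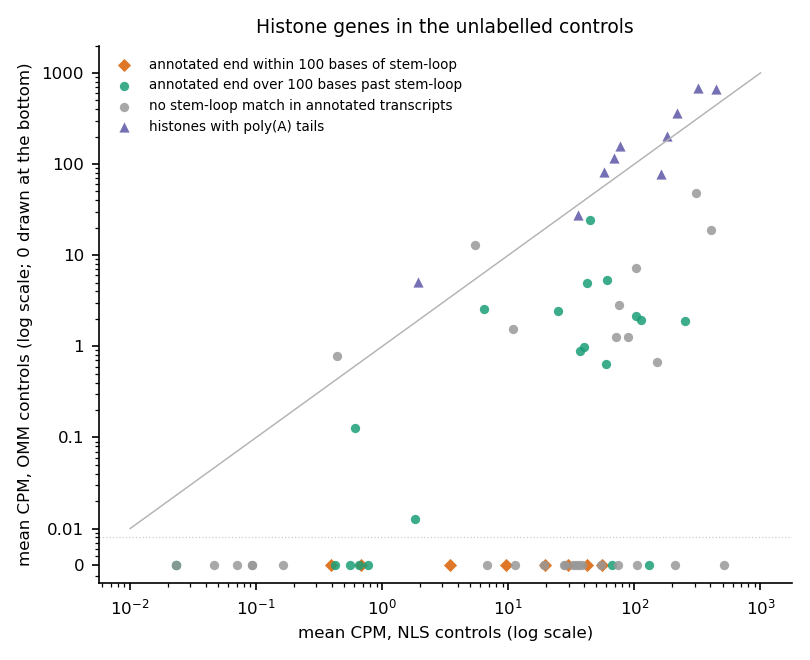
Mean CPM of histone genes in the NLS controls (horizontal) and OMM controls (vertical), both on log scales, with 0 drawn at the bottom and a line of equal level. Histones with poly(A) tails (triangles) lie near the line, while the 5 well-covered genes whose annotation ends within 100 bases of the stem-loop (diamonds) all lie at 0.

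Spliceosomal snRNAs and the guide RNAs of the nucleolus and Cajal body were counted as well. The snRNAs catalyse and direct splicing. Of 48 members 32 were tested and 6 were called higher in the NLS controls, against 6.65% of all tested genes. The median log2 fold change was 8.64, or 4.42 with bounds, and 27 of the 32 had 0 counts in both OMM controls. RNU4-2, a U4 gene, had 22.7 and 34.0 CPM against 0 and was at least 350-fold higher. RNU5D-1, a U5 gene, had 13.4 and 13.3 CPM against 0 and was at least 165-fold higher, though it did not pass without NLS number 1 or 3 (edgeR adjusted p = 0.114 and 0.0747). SCARNA2, a guide RNA of the Cajal body, had 20.01 and 28.3 CPM against 0, at least 299-fold higher, and 6 of 18 tested scaRNAs were called higher and 0 lower. Its reads were also counted for an overlapping identifier.

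Box C/D snoRNAs, which guide 2′-O-methylation, had 15 of 103 tested genes called higher and 0 lower, against 6.65% and 2.94% of all tested genes. The median was 4.06, or 2.59 with bounds. That median was 6.58 by DESeq2 and ran from 2.26 without NLS number 3 to 7.65 without OMM number 3. Box H/ACA snoRNAs, which guide pseudouridylation, had 15 of 88 called higher and 0 lower, with a median of 6.71, or 3.40 with bounds, and 4.84 to 8.20 with the same 2 libraries left out in turn. SNORA73B, an H/ACA RNA inside an intron of SNHG3 and RCC1, had 70.1 and 199 CPM at NLS and 2.72 and 3.76 CPM at OMM, a log2 fold change of 5.38 ± 0.67 (SE, edgeR adjusted p = 0.0465). SNORD10 had 51.7 and 119 CPM against 0.642 and 0 CPM, a log2 fold change of 7.997 ± 1.39 (SE, edgeR adjusted p = 0.0483). Without OMM number 3 or 4 both missed the threshold, SNORA73B at an edgeR adjusted p of 0.196 and 0.213 and SNORD10 at 0.113 and 0.148. Some members had higher values in the OMM controls without passing. SNORD86, which touches an exon of NOP56, had 13.1 and 17.5 CPM at NLS and 30.4 and 38.5 CPM at OMM (edgeR adjusted p = 0.0785), and SNORD58B, which touches an exon of RPL17, had 3.58 and 6.19 CPM against 18.6 and 23.5 CPM (edgeR adjusted p = 0.0617).

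What remained of the snoRNA genes in the OMM controls lay mostly on exons of longer genes. Box C/D snoRNA genes that touch an exon of another gene on their strand held 92.9% and 95.2% of the group's counts in the OMM controls, against 50.7% and 47.5% in the NLS controls. For H/ACA snoRNA genes the shares were 80.4% and 84.5% against 58.6% and 55.8%. The OMM counts of snRNA genes, 240 and 201 in all, lay inside introns to 62.9% and 100%, and those of scaRNA genes to 16.2% and 53.3%. Of 37 box C/D genes with at least 100 summed OMM counts, 34 touched such an exon and 3 lay in an intron. Among those with at least 10 counts in both NLS controls, 15 of 22 intronic genes had 0 counts in both OMM controls, and 20 of 61 that touch an exon. Of 21 spliceosomal snRNA genes that lie outside other genes and had that coverage, 20 were at 0 in both OMM controls. In a gene count, reads of the snoRNA and reads of a host exon cannot be told apart, and the counting gave the same reads to each overlapping gene.

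**Figure D3:**
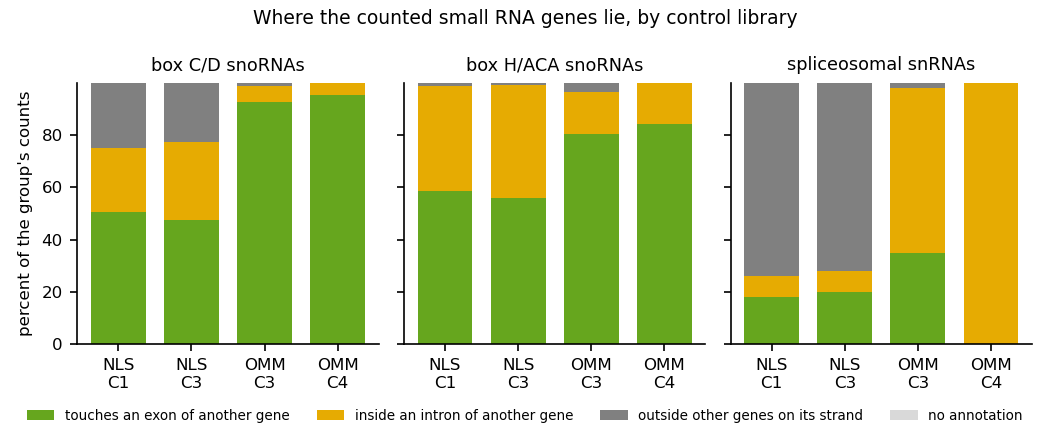
Percent of the counts of each RNA group that fall on genes touching an exon of another gene, inside an intron, or outside other genes, for the 4 control libraries. Exon-touching genes hold 92.9% and 95.2% of box C/D counts in the OMM controls against 50.7% and 47.5% in the NLS controls; the snRNA bars of the OMM controls rest on 240 and 201 counts.

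MicroRNA loci were read mostly on exons of longer genes in every control, 86.6% and 85.2% of their counts at NLS and 91.6% and 90.0% at OMM. Reads of a microRNA locus and reads of the longer transcript cannot be told apart in these counts. Of 149 tested loci 18 were called higher in the NLS controls and 1 lower, against 6.65% and 2.94% of all tested genes. The 1 lower was MIR1244-1, which touches an exon of PTMA, at 19.8 and 18.2 CPM against 157 and 153 CPM, a log2 fold change of -3.02 ± 0.17 (SE, edgeR adjusted p = 0.0414). It had the lowest log2 fold change among called genes that averaged 5 or more in log2 CPM and had groups that did not overlap. MIR636, which touches an exon of the splicing factor gene SRSF2, had 43.7 and 47.8 CPM against 4.34 and 3.56 CPM, a log2 fold change of 3.53 ± 0.30 (SE, edgeR adjusted p = 0.0414).

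Long non-coding RNAs were split by gene. MALAT1, a nuclear speckle RNA whose mature end is a triple helix made by RNase P cleavage instead of a tail, stood at 919 and 949 CPM in the NLS controls and 56.2 and 13.6 CPM in the OMM controls. Its log2 fold change was 4.74 ± 0.78 (SE, edgeR adjusted p = 0.0482), and it did not pass without NLS number 1 or 3 (edgeR adjusted p of at least 0.795). OMM control 3 was well above control 4. NEAT1, the paraspeckle scaffold, with a short polyadenylated and a long unpolyadenylated form, had 70.7 and 80.2 CPM against 50.5 and 20.1 CPM and did not pass (edgeR adjusted p = 0.226). TUG1, a polyadenylated RNA, had 188 and 163 CPM against 151 and 157 CPM (edgeR adjusted p = 0.471). LINC00632, which hosts the circular RNA CDR1as, had 204 and 172 CPM against 13.7 and 4.61 CPM, a log2 fold change of 4.36 ± 0.61 (SE, edgeR adjusted p = 0.0482). Gene counts do not separate circular from linear forms.

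Of the 15 RNAs on this list, 4 were called higher in the NLS controls and 0 lower, with a median log2 fold change of 1.65 (3.50 without OMM number 3). Wider classes of long non-coding RNA had 23 of 199 called higher for genes named LINC, 35 of 403 for antisense genes and 18 of 120 for divergent transcripts, with 0 lower in each and medians of 0.84, 0.81 and 0.97. All tested genes were called higher at a share of 6.65%. These medians are not stable: without OMM number 3 they were 6.63, 6.70 and 6.91, and without a filter 4.79, 4.48 and 4.79. Hosts of snoRNAs, spliced transcripts with poly(A) tails, had 0 of 28 called higher and 3 lower, against 2.94% of all tested genes called lower. Their median of -0.30 was 0.012 without a filter and 0.22 without OMM number 4. SNHG29 had 109 and 138 CPM against 455 and 518 CPM, a log2 fold change of -1.98 ± 0.18 (SE, edgeR adjusted p = 0.0414), and SNHG5 had 56.5 and 61.4 CPM against 240 and 187 CPM.

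Messages of the ribosome, the respiratory chain and the proteasome were often lower in the NLS controls. Ribosomal protein genes had 54 of 81 tested called lower and 0 higher, against 2.94% of all tested genes called lower, with a median log2 fold change of -1.15. RPS29 had 61.2 and 66.6 CPM at NLS and 409 and 486 CPM at OMM, a log2 fold change of -2.81 ± 0.16 (SE, edgeR adjusted p = 0.0414). RPS14 had 204 and 249 CPM against 1216 and 1184 CPM, a log2 fold change of -2.41 ± 0.15. RPS4X, with 2129 and 2364 CPM against 3837 and 3615 CPM, was called at a log2 fold change of -0.73 ± 0.12 (SE, edgeR adjusted p = 0.0482). The NLS and OMM libraries did not overlap for any of these 3 genes, which was so for 62.0% of all tested genes. The call of RPS4X was lost without NLS number 1. RPS29 lies opposite RN7SL1 on chromosome 14, and the strand setting of the counting is not given in the sources used here.

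Nuclear genes of oxidative phosphorylation had 33 of 78 called lower and 0 higher, against 2.94% and 6.65% of all tested genes. The median was -0.86. NDUFA4, a small subunit of the respiratory chain, had 44.4 and 53.8 CPM against 270 and 259 CPM, a log2 fold change of -2.43 ± 0.16 (SE, edgeR adjusted p = 0.0414). NDUFA1, of complex I, had 47.8 and 55.1 CPM against 235 and 265 CPM, and ATP5F1B, the catalytic subunit of ATP synthase, 450 and 485 CPM against 908 and 1081 CPM. Proteasome and CCT chaperonin genes had 18 of 42 called lower, translation factors 9 of 37 and glycolysis 3 of 17, with 0 higher in each. EEF1A1, the elongation factor that brings tRNA to the ribosome, had 2795 and 2951 CPM against 6921 and 7042 CPM, a log2 fold change of -1.28 ± 0.11 (SE, edgeR adjusted p = 0.0414). GAPDH had 1308 and 1378 CPM against 2368 and 2417 CPM, and CCT7 407 and 437 CPM against 905 and 996 CPM, and both were called lower. GAPDH did not pass without NLS number 1 (edgeR adjusted p = 0.0724). The count of oxidative phosphorylation genes called lower was 50 by DESeq2, 19 without NLS number 1, and 58 and 63 without OMM number 3 or 4.

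Messages of the endoplasmic reticulum and secretory pathway had 2 of 43 called higher and 8 lower, with a median of -0.32. Of all tested genes, 6.65% were called higher and 2.94% lower. CANX, the membrane chaperone calnexin, had 1403 and 1218 CPM against 1410 and 1289 CPM (edgeR adjusted p = 0.893). Zinc finger genes, which mostly encode DNA-binding repressors, had 19 of 408 called higher and 1 lower, with a median of 0.49 (0.86 without OMM number 3). Their share called higher was below that of all tested genes. The 5 biotin-dependent carboxylases, whose proteins carry natural biotin and can bind streptavidin, had 0 called in either direction and a median of -0.34 (-0.046 without OMM number 3). Splicing kinases and SR proteins had 0 of 23 called higher and 3 lower.

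Transcript length went along with the fold change of protein-coding genes. With histones and mitochondrial genes left out, 13478 genes were ordered by median annotated transcript length and cut into 5 classes of nearly equal size. The median log2 fold change was 0.43 in the longest class (median length 3372 bases) and between -0.12 and 0.11 in the others. The share called lower fell from 6.41% in the shortest class (median 611 bases) through 5.70%, 3.87% and 2.26% to 0.519% in the longest, and the share called higher was 7.72% in the longest and 3.55% to 4.68% elsewhere. Spearman's rho of length and log2 fold change was 0.175 across genes, and 0.224 across the 6350 genes that averaged 5 or more in log2 CPM. Genes are not independent replicates and all share the same 4 libraries, so no p is given.

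The mitochondrially encoded messages varied within the groups too, by a median log2 difference of 0.91 from OMM control 4 to control 3 and of -0.47 from NLS control 1 to control 3. Mitochondrial messages have short tails, and MT-ND6, from the other strand, is known to lack one. MT-CO1 had 5414 and 3998 CPM in the NLS controls and 10615 and 7172 CPM in the OMM controls (edgeR adjusted p = 0.0929), and MT-CO3 had 1972 and 1425 CPM against 5823 and 3785 CPM (edgeR adjusted p = 0.0507). Of 13 messages 0 were called, with a median log2 fold change of -0.91 (-0.27 without OMM number 3), and 7 of the 13 had libraries that did not overlap, against 62.0% of all tested genes. All 13 were higher in OMM control 3 than in control 4 and lower in NLS control 3 than in control 1. MT-ND6 had 379 and 245 CPM against 1028 and 266 CPM. The 16S ribosomal RNA MT-RNR2 had 4528 and 2966 CPM against 4427 and 2319 CPM, and 0 of 24 mitochondrial rRNAs and tRNAs were called. Mitochondrial DNA gave 4.49% and 3.19% of counts at NLS and 7.19% and 4.29% at OMM.

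**Figure D4:**
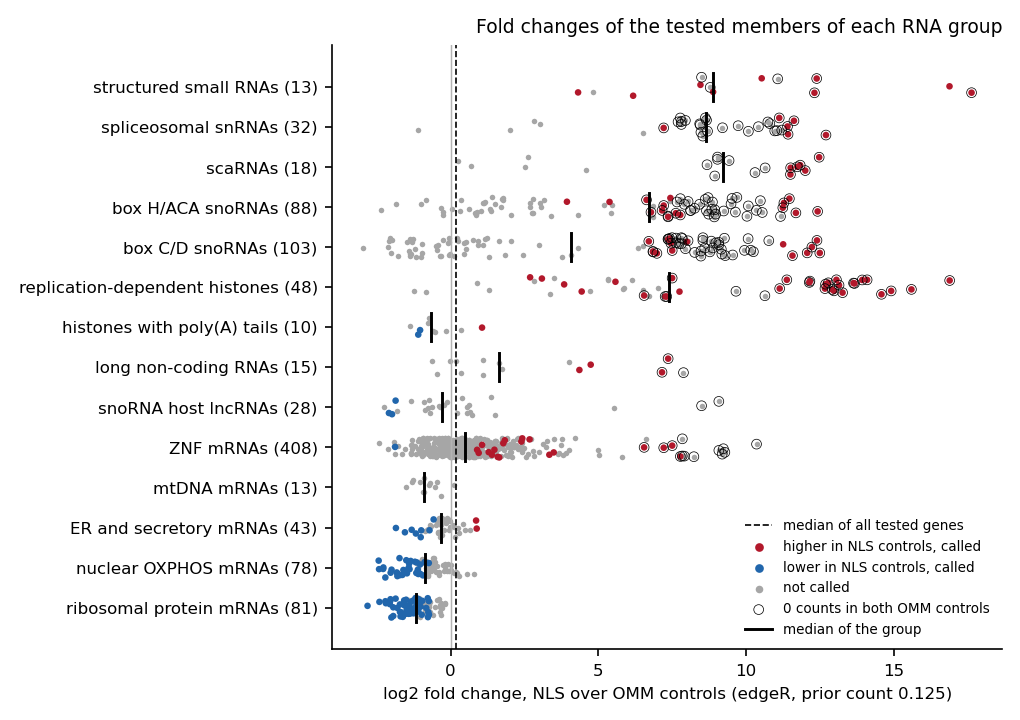
Log2 fold change of NLS over OMM controls for every tested member of 14 RNA groups, with called genes in red (higher at NLS) or blue (lower), a ring on genes at 0 in both OMM controls and a bar at the group's median. For ringed genes the position depends on the prior count and is no estimate of size. Ribosomal protein messages centre at -1.15 and structured small RNAs at 8.88, and the dashed line marks the median of all genes at 0.19.

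The labelled libraries offered the same contrast of kits in 4 other libraries, though there the labelled compartment differs as well. That contrast called 7368 of 20836 genes higher at NLS (35.4%) and 2806 lower (13.5%), 48.8% in all, with a median log2 fold change of 0.79, or 1.09 when scaled by library size alone. All 12 tested structured small RNAs were called higher, with a median of 7.29 with bounds against 8.06 in the controls, and 8 of the 12 had 0 counts in both labelled OMM libraries. All 30 tested snRNAs were called higher, each with 0 counts in both labelled OMM libraries, and 29 of 44 replication-dependent histones. Ribosomal protein genes had 77 of 81 called lower, with a median of -1.95. Of the 939 genes called higher in the controls and tested in both contrasts, 815 had the same sign in the labelled libraries and 561 were called there. Of the 518 called lower, 504 had the same sign and 422 were called.

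The difference between the 2 contrasts was tested as the interaction of a joint fit of all 8 libraries, which equals the difference between the labelling effects of the 2 compartments. It called 1445 of 23178 genes higher (6.23%) and 325 lower (1.4%), 7.64% in all. Among structured small RNAs 0 of 14 were called higher and 1 lower, TERC (interaction adjusted p = 0.0209, edgeR). It had a log2 fold change of 6.18 in the controls, while in the labelled libraries it stood at 69.3 and 48.4 CPM at NLS and 0 in both at OMM, at least 740-fold higher or 9.53 on the log2 scale. A member with 0 counts in all 4 OMM libraries has no measured fold in either contrast, so the lack of a call says nothing about it. Among replication-dependent histones 2 of 51 were called higher. Messages of the secretory pathway gave the largest share called among the lists described, 30 of 43 called higher and 0 lower. CANX was an example, with a log2 fold change of -0.04 in the controls and -3.23 in the labelled libraries (interaction adjusted p = 0.00404, edgeR). NEAT1 stood at 1.10 in the controls and 5.85 in the labelled libraries (interaction adjusted p = 0.0215, edgeR).

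**Figure D5:**
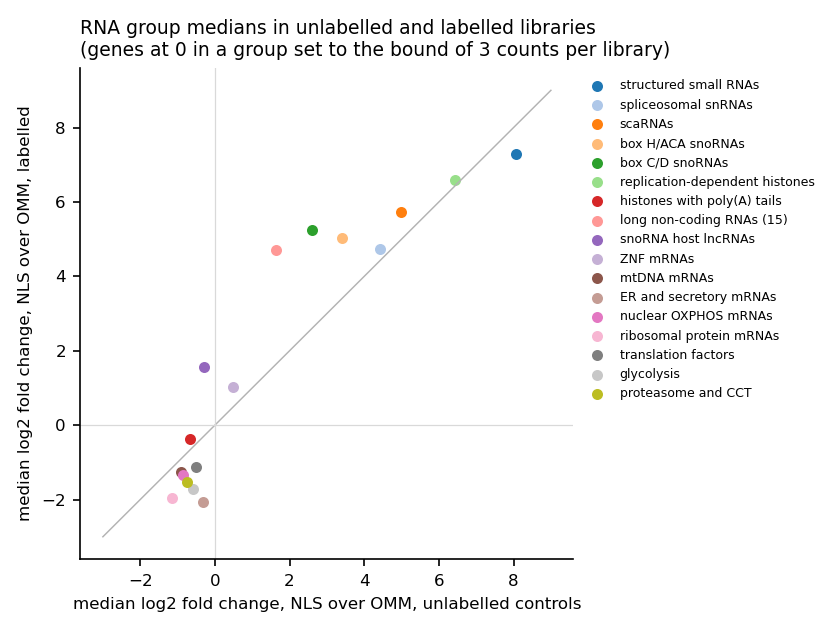
Median log2 fold change of NLS over OMM for 17 RNA groups in the unlabelled controls (horizontal) and the labelled libraries (vertical), with genes at 0 in a group set to the bound of 3 counts per library and a line of equal medians. Medians of groups with many such genes, as structured small RNAs (8.06 and 7.29) and snRNAs (4.42 and 4.73), depend on depth, and their closeness to the line does not show equal size. Secretory messages (-0.32 and -2.07) lie below the line and the 15 long non-coding RNAs (1.65 and 4.72) above it.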

How the data were processed

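The deposited values are raw read counts for each gene. The submitters' processing notes list Trimmomatic, STAR, HTSeq, SAMtools, bedtools and DESeq2, with GRCh38.p13 and hg38 as builds. Tool versions and HTSeq's strand option are not given in the sources, so nested, antisense and near-identical genes are uncertain. Columns were assigned to a group by the compartment and arm in their names, and libraries are named by the column numbers. The tables held 60664 identifiers, 58396 of them in GENCODE 29, and 4 count columns whose names matched no sample were not used. In 16 sets, 32 identifiers with at least 100 counts in all shared identical counts.

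Counts of the 4 controls were fitted with edgeR 4.0.16 (R 4.3.3; TMM factors 0.935 to 1.04, filterByExpr with a minimum count of 10, prior count 0.125, robust quasi-likelihood F test, Benjamini-Hochberg threshold 0.05). SE is the size of the log2 fold change over the root of its F value. The biological coefficient of variation was 0.739. A floor of 3 counts lies at 0.139 to 0.140 CPM (NLS) or 0.0770 to 0.0848 CPM (OMM), and intervals (95%, exact) and floors cover counting error only, since reads carry no molecular identifiers. Both pairs of replicates differed beyond sampling noise (chi-square per degree of freedom 23.5 and 181). The alternatives tried were other scalings, DESeq2 1.42.0, no filter, a joint fit and leaving out each library.

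The RNA lists and the 4 libraries were chosen with earlier results of these data known. Named genes are the 10 highest and lowest called fold changes at a mean log2 CPM of at least 5, the leading members of each list in each group, and all structured small RNAs, mitochondrial messages, tailed histones and cell markers. Of these a subset is printed, and genes named outside the rule are said to be so. Lists of ribosomal protein and mitochondrial pseudogenes took in other genes by their name patterns and were left out. Drawings were made with matplotlib 3.10.9.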

Additional observations from a re-analysis of the deposited data

Results flagged for a closer look

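For 15 of the genes named above, the difference between NLS and OMM was not the same in the unlabelled and the labelled libraries, by the interaction term of the joint edgeR fit (adjusted p under 0.05, 2 libraries in each of 4 groups). The values below are the control log2 fold change minus the labelled one. It was positive for the chaperone gene CANX (3.39), VIM (2.00), ATP5F1B (1.80), RPS4X (1.70), EEF1A1 (1.66) and GAPDH (1.55). Among histone genes it was 1.58 for H2BC12, 1.57 for H1-10, 1.51 for H3-3B and 1.46 for H2AZ1. For MIR1244-1 it was 2.75. It was negative for SNORA73B (-8.09), TERC (-7.19), NEAT1 (-4.57) and SNHG5 (-1.42). SNORA73B and TERC had 0 counts in both labelled OMM libraries, so their sizes here are set by the prior count and are no estimates. Against a floor of 3 counts per library their labelled log2 fold changes were at least 9.64 and 9.53, beside 5.38 and 6.18 in the controls. The background share of all tested genes called in this test was 7.64%. No group of libraries was large enough to test single libraries as outliers.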

How the results depend on the processing

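No paired analysis was possible because the control columns share only the number 3 between the groups and carry no replicate numbers of the labels. DESeq2 called 2440 genes higher and 1681 lower, testing without a filter called 1006 lower, and the joint fit of 8 libraries called 517 higher. Leaving out 1 library gave 314 to 7136 higher and 239 to 3960 lower, and the lone library is then assumed to vary like the other group. Oxidative phosphorylation genes called lower numbered 50 by DESeq2 and 19 to 63 with 1 library left out. Counts of called histones, structured small RNAs and ribosomal protein genes stayed within 1.5 times of the reported ones under every alternative run. Without a filter 7 of the named calls were lost: RN7SK, RN7SL1, RN7SL2, RPPH1, SNORD10, MALAT1 and LINC00632. Of 26 list medians, leaving out OMM number 3 moved 16 by more than the spread between library pairs and reversed 3, and testing without a filter moved 10 and reversed 1. Medians that moved by over 1.5 times are given beside the lists. Some values near 0 changed sign, and the cause was not tested. The snoRNA host median was 0.012 without a filter and ran from -0.32 to 0.22 with 1 library left out, the splicing kinase and SR protein median from -0.16 to 0.044 and the HEK293T marker median from -0.26 to 0.085. CANX was at 0.047 by library size alone and ran from -0.15 to 0.058 with 1 library left out, MT-RNR2 from -0.27 to 0.70, MT-ND6 from -1.75 to 0.24 and VIM from -0.075 to 0.14. By counting error alone, an RNA under about 0.0848 CPM cannot be told from absent in the OMM controls. Dropout between these libraries sets a higher limit, which was not estimated. Of 12739 genes that averaged at least 100 counts there, 533 had 0 in 1 library.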
